A study of Bos taurus with 30 samples.

Results

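The regions described here were stretches of bovine chromatin that were open in germinal vesicle (GV) oocytes, were not called open in 2-, 4- and 8-cell embryos, and were open again in morulae, in the inner cell mass (ICM) of the blastocyst, or in both. They were chosen by measured values: a GV oocyte region was kept when it overlapped no region of the 3 early cleavage stages and overlapped a morula or an ICM region. There were 4064 such regions among 33347 GV oocyte regions (12.2%) and among 275403 regions merged over all 10 conditions. Their openness in the 6 control stages named in the rule is therefore a description, while the embryonic stem cell (ESC) libraries and the libraries of α-amanitin-treated embryos played no part in the choice. They are called late-reopened regions below.

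In ATAC-seq a transposase inserts sequencing adapters where DNA is accessible, and a peak marks an interval that received more insertions than its surroundings. The GV oocyte is the full-grown, meiotically arrested egg, whose nucleus is largely silent as it waits for maturation. In cattle the embryo runs on stored maternal RNA until its own genome becomes broadly active around the 4- to 8-cell stages. The morula then compacts, and the blastocyst segregates the ICM, the source of the fetus and of ESC, from the trophectoderm.

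The data were 30 peak lists, 3 replicates in each of 10 groups. GV oocytes were collected before maturation, and embryos were produced in vitro with frozen semen of a single Holstein bull, as untreated 2-cell embryos at 30 to 32 h, 4-cell embryos on day 2, 8-cell embryos on day 3 and morulae on day 5 after insemination. ICM were isolated by immunosurgery from blastocysts on day 7, and ESC were bovine lines grown on mouse feeder cells in CTFR medium. Transcription-blocked embryos (TBE) were cultured with 50 µg/ml α-amanitin, which blocks RNA polymerase II, and were taken at the 2-, 4- and 8-cell stages. Each oocyte and embryo library was made from a pool of at least 500 cells, with separate oocyte collections for the replicates, so the spread given below is between pools and not between single embryos. Peaks show how often accessible DNA was found in a pool, and fewer cells with an open site cannot be told apart from a weaker opening in every cell.

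The lists differed in length. GV oocyte lists held 40132 to 44678 peaks, 2-cell lists 1002 to 6440, 4-cell lists 14355 to 42012, 8-cell lists 125253 to 156569, morula lists 142231 to 207459, ICM lists 84773 to 116791 and ESC lists 39333 to 142643, while the TBE lists held 925 to 11083 peaks at 2-cell, 3094 to 32260 at 4-cell and 50090 to 247513 at 8-cell. Peak lists hold no read numbers, and a background level proportional to the depth of a library was solved from its peaks. Summed over 3 libraries it was 2.93 at 8-cell and 2.095 in morula by this measure. Single libraries ran from 0.806 to 1.315 at 8-cell and from 0.452 to 0.927 in morula, so the groups overlapped. The part of depth in the calls was not tested. The sum was 1.17 at 4-cell and 1.00 in GV oocytes. At 2-cell it was at most 1.06, since the level of 1 library was an upper limit. The short 2-cell lists had almost no effect on the choice, and without them the rule kept 4065 regions.

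Late-reopened regions were short and of moderate enrichment. Their median length was 587 bp, with 80% between 275 and 1239 bp, and they covered 2.81 Mb in all. The median over all GV oocyte regions was 700 bp. Fold enrichment, the tags in a peak over the local background, had a median of 3.89 for late-reopened regions in GV oocytes, against 4.22 for all GV oocyte regions. Peaks of all 3 GV oocyte libraries covered 1540 of them (37.9%), and the others had peaks in 2 libraries. The share with all 3 was 59.0% over all GV oocyte regions.

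A pair of other sets of oocyte regions, which differ from these in when they reopened, served for comparison. Oocyte-only regions (n = 7339) were absent from 2-cell embryos through ICM, and regions reopened first at 8-cell (n = 10420) were absent at 2- and 4-cell and present at 8-cell. In GV oocytes the late-reopened regions lay between these sets. Median length was 516 bp for oocyte-only regions and 676 bp for regions reopened at 8-cell, and median fold enrichment was 3.81 and 4.18. Peaks in all 3 GV oocyte libraries were found for 28.8% of oocyte-only regions and 58.0% of regions reopened at 8-cell.

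The share of oocyte regions that reopened late decreased with enrichment in the oocyte. In the lowest quartile of GV oocyte fold enrichment, 1555 of 8337 regions (18.7%) were late-reopened. The middle quartiles held 15.4% and 10.7%, and the highest quartile held 336 of 8337 (4.03%). Oocyte-only regions fell in the same order, from 38.2% to 5.84% of a quartile. Regions reopened first at 8-cell showed no such order, with 30.2%, 35.0%, 36.0% and 23.7% from the lowest to the highest quartile.

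Most late-reopened regions were open in the morula. Of the 4064 regions, 1689 (41.6%) overlapped a morula region only, 649 (16.0%) an ICM region only, and 1726 (42.5%) both. In sum 3415 (84.0%) were open in the morula, where 71.9% of all GV oocyte regions were, and 2375 (58.4%) in the ICM, where 63.1% of all GV oocyte regions were. These counts follow in part from the rule, and nothing is read from them.

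In single libraries, peaks overlapped 79.3%, 81.7% and 76.9% of late-reopened regions in GV oocytes. In 2-cell embryos the shares were 0.394%, 0.197% and 1.80%, and in 4-cell embryos they were 27.3%, 4.40% and 2.02%. The first 4-cell library stood apart and held 1108 of the regions, against 179 and 82 in the others. It also held the largest share of all GV oocyte regions, 57.5% against 32.9% and 22.0%. In 8-cell embryos the shares were even, at 14.3%, 11.7% and 14.0%. Morula libraries held 52.8%, 86.2% and 73.1%, and ICM libraries held 53.3%, 44.8% and 62.7%. Every morula and ICM library held a larger share of late-reopened regions than every 8-cell library, as the rule required of most regions. Over all GV oocyte regions, 8-cell libraries held 64.7%, 60.9% and 63.5%, morula libraries 65.0%, 75.55% and 70.8%, and ICM libraries 62.3%, 57.7% and 67.1%.

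**Figure D1:**
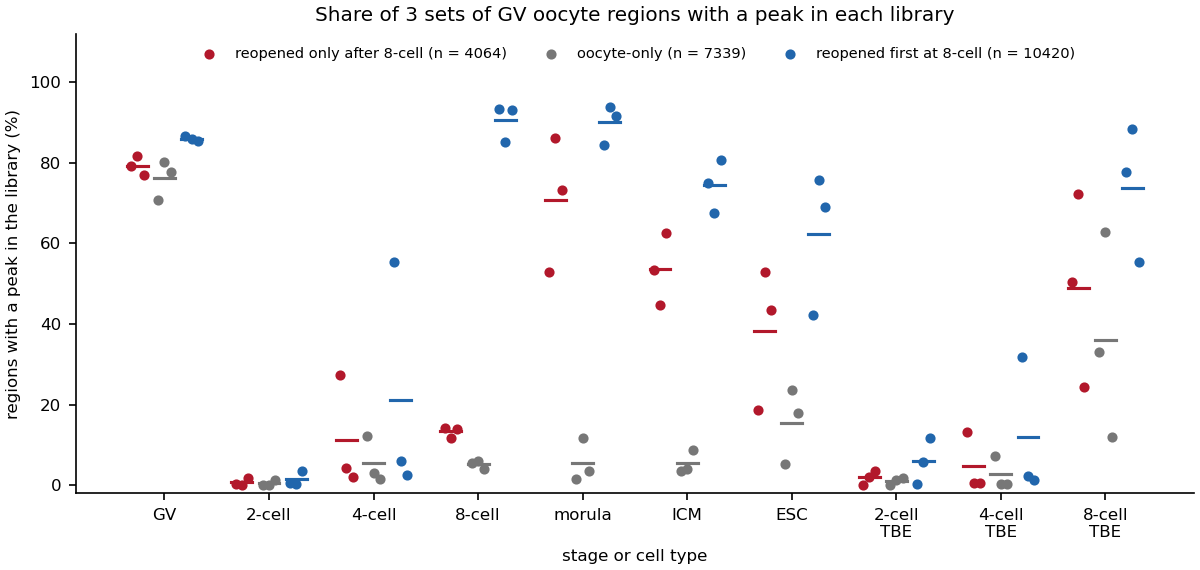
Percentage of late-reopened (red), oocyte-only (grey) and first-at-8-cell (blue) regions overlapped by a peak in each of 30 libraries; each point is a library, in the order of replicates 1 to 3, and each line is the mean of 3. Late-reopened regions sit at 11.7% to 14.3% in 8-cell embryos, at 52.8% to 86.2% in morulae, and between the other sets in each ESC and 8-cell TBE library.

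Absence at the early stages was complete for part of the set. No peak of any of the 9 libraries of 2-, 4- and 8-cell control embryos overlapped 1760 of the regions (43.3%). At 8-cell, 2478 regions (61.0%) had no peak in any library, 1543 (38.0%) had a peak in 1 library, and 43 had peaks of 2 libraries that did not form a shared region. At 4-cell, 2709 (66.7%) had no peak and 1341 (33.0%) a peak in 1 library. Among the 1760 regions with no early peak, 1436 (81.6%) were open in the morula and 945 (53.7%) in the ICM. Membership required a morula or an ICM region, so these shares followed in part from the rule. Over all GV oocyte regions they were 71.9% and 63.1%.

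Regions on either side of the threshold at 8-cell were close in oocyte enrichment. The 1543 regions with a peak in 1 of 3 8-cell libraries had a median fold enrichment of 3.94 in GV oocytes and 3.22 in the 8-cell library. Just outside, 2195 regions counted as reopened first at 8-cell had peaks in exactly 2 of 3 libraries. Their medians were 4.01 in GV oocytes and 3.84 for the highest 8-cell library. Among all regions counted as reopened first at 8-cell, 50 were placed there by an overlap of under 50 bp with an 8-cell region. These can be among the 2195.

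Where late-reopened regions had peaks, enrichment at 8-cell was the lowest among the control groups. The rule removed shared 8-cell regions and left mostly peaks called in a single 8-cell library. It set the same limit at 2-cell and 4-cell, where the medians were 3.595 to 3.946 and 3.518 to 3.835. Oocyte-only regions, chosen with the same limits, had 8-cell medians of 3.024 to 3.215. Summed background levels were also highest at 8-cell among the control groups, and the parts of the rule and of depth were not tested. Median fold enrichment over the late-reopened regions was 3.94, 3.96 and 3.72 in the GV oocyte libraries. It was 3.08, 3.20 and 3.40 in the 8-cell libraries, over 583, 476 and 570 regions with a peak. In the morula it was 3.86, 4.08 and 4.05, over 2146, 3503 and 2972 regions. In the ICM it was 4.09, 3.82 and 3.93, and in ESC 4.22, 4.18 and 4.11. In 8-cell TBE it was 3.25, 2.49 and 3.69, over 2046, 2939 and 996 regions, and lowest in the deepest library. The 8-cell medians were below the medians over all peaks of those lists, which ran from 3.81 to 4.05. The morula medians were also below those of their lists, 4.12 to 4.34, and below those of regions reopened first at 8-cell, 4.96 to 5.26.

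**Figure D2:**
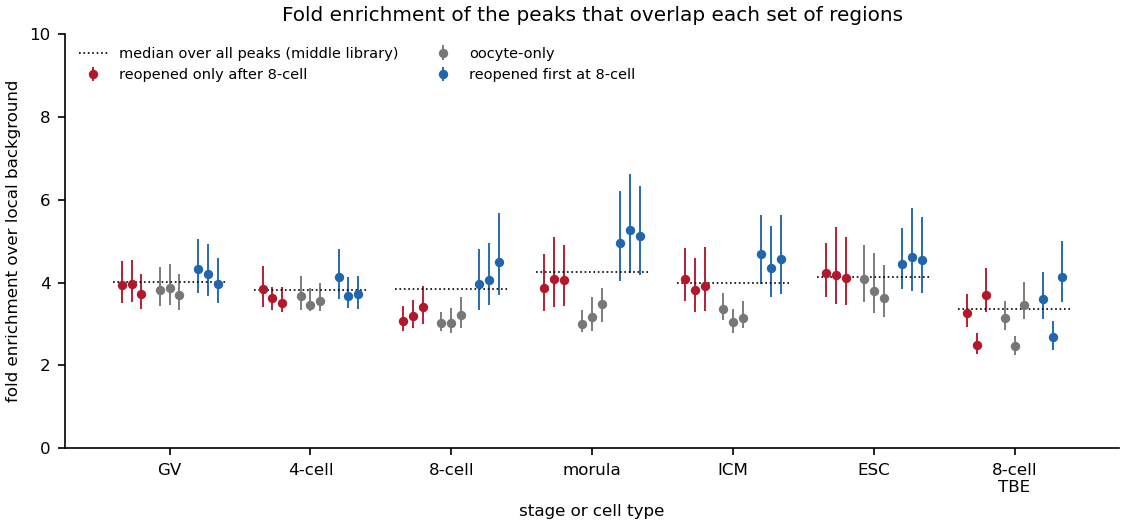
Median fold enrichment over the local background (points, a library each) with the interquartile range over regions (vertical lines) for peaks overlapping late-reopened (red), oocyte-only (grey) and first-at-8-cell (blue) regions; dotted lines mark the median over all peaks in the middle library of each group. Late-reopened regions have medians of 3.08 to 3.40 at 8-cell and of 3.86 to 4.08 in the morula, below the 4.96 to 5.26 of regions reopened first at 8-cell.

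The morula and ICM peaks lay largely on the oocyte site. For the 3415 regions open in the morula, the morula region covered a median of 80.4% of the oocyte region, and at least 50% of it in 72.2% of cases. The centers were a median of 216.5 bp apart. In the ICM the cover was 82.9% and the distance 171 bp, over 2375 regions. For regions reopened first at 8-cell, morula regions covered more of the oocyte region, 96.8%, with centers 169.5 bp apart. Morula regions that matched late-reopened regions had a median length of 717 bp, against 898 bp for those matching regions reopened first at 8-cell and 613 bp for all morula regions.

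To compare the stages in libraries that had not chosen the regions, the rule was applied 3 times to 2 of the replicate numbers, and the one left out was read. This gave 3417, 2220 and 2690 regions without replicates 1, 2 and 3. With 2 replicates a region had to be found in both, so absence was a weaker demand and more 8-cell peaks were found than with the whole rule. The held-out 8-cell libraries had peaks at 43.9%, 30.9% and 42.2% of the regions (39.0% ± 7.07, SD, n = 3). The held-out morula libraries had peaks at 61.1%, 88.4% and 80.7% (76.7% ± 14.1, SD, n = 3). The groups did not overlap, and the morula was higher by 37.7 percentage points. The regions were still chosen for absence at 8-cell and presence in morula or ICM in the other replicates. The order of these stages therefore followed in part from the choice, and the held-out libraries show how far the calls were repeated.

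The ICM lay between them, with 58.2%, 55.6% and 72.9% (62.2% ± 9.30, SD, n = 3), and was higher than 8-cell by 23.2 points, again without overlap. For each of these differences the exact two-sided permutation test gave p = 0.1, the smallest p that 3 libraries against 3 allow, and 0.4 after Benjamini-Hochberg adjustment over 8 tests. Libraries of the same left-out number were read on the same regions, so their shares were not independent. The exact paired permutation test by replicate number gave p = 0.25 for each difference, the smallest p of 3 pairs. The design therefore could not reach a threshold of 0.05. By the same reading, oocyte-only regions had 10.7% in 8-cell, 15.8% in morula and 11.3% in ICM libraries. All GV oocyte regions had 71.3% in 8-cell, 77.5% in morula and 70.5% in ICM libraries, with no test. For them, morula minus 8-cell was 6.12 points and ICM minus 8-cell was -0.825 points. The morula share of late-reopened regions was thus near that of all GV oocyte regions, and their 8-cell and ICM shares were lower.

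**Figure D3:**
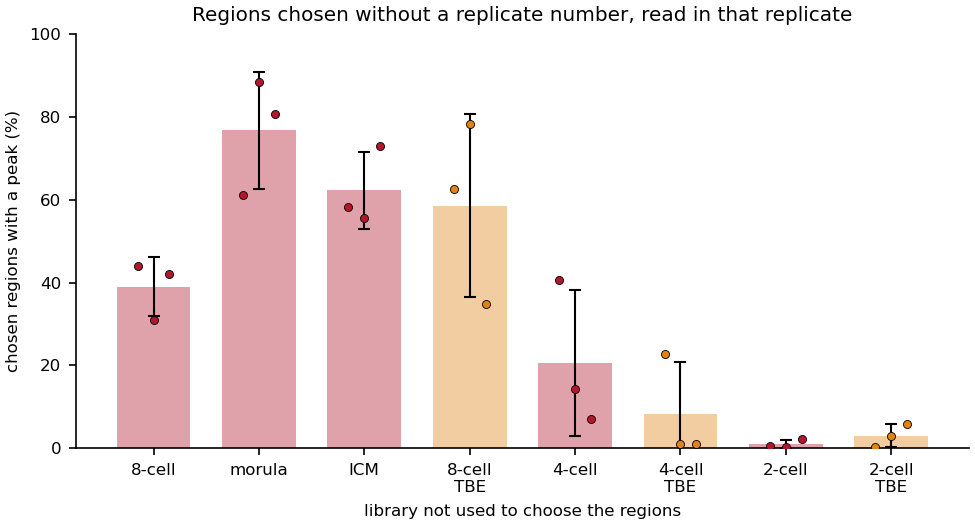
Percentage of regions with a peak in libraries that were not used to choose them; each point is a library, the bars are means of 3 and the error bars are SD, with TBE in orange. The morula (61.1% to 88.4%) and ICM (55.6% to 72.9%) libraries lie above the 8-cell libraries (30.9% to 43.9%), while the 8-cell TBE libraries range from 34.7% to 78.3%. Regions were chosen for absence at 8-cell and presence in morula or ICM in the other replicates.

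ESC, which the rule did not use, carried an open region at 1643 late-reopened regions (40.4%). The background was higher, since 59.4% of all GV oocyte regions overlapped an ESC region. Peaks were found at 18.6%, 53.0% and 43.4% of late-reopened regions in the 3 ESC libraries, at 5.25%, 23.7% and 17.8% of oocyte-only regions, and at 42.2%, 75.7% and 69.0% of regions reopened first at 8-cell. Within each library the late-reopened regions were therefore between the other sets. They exceeded oocyte-only regions by 22.8 points on average, in 3 of 3 libraries, and were 23.9 points below the regions reopened at 8-cell, in 3 of 3 libraries. The oocyte-only set was chosen for lacking morula and ICM regions, and the ESC lines were derived from ICM. A higher ESC share in late-reopened than in oocyte-only regions was thus favored by the choice of sets. The exact two-sided paired permutation test gave p = 0.25 for each (0.4 adjusted), which is the smallest p of 3 pairs. The shares followed the depth of the ESC libraries, whose background levels were 0.175, 0.656 and 0.404, and the part of depth in the spread between libraries was not tested.

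Among late-reopened regions, those open in both later embryo stages were most often open in ESC. An ESC region overlapped 54.4% of the regions shared by morula and ICM, 35.3% of those open in the ICM only and 28.1% of those open in the morula only. Each share was below the 59.4% of all GV oocyte regions. The order of the subsets held in each ESC library. Peaks were at 26.6%, 66.4% and 56.8% of the shared regions, at 17.9%, 47.3% and 39.3% of ICM-only regions and at 10.8%, 41.5% and 31.3% of morula-only regions. Shared regions were also longer, with a median of 617 bp against 564 bp for ICM-only and 561 bp for morula-only regions. Peaks in all 3 GV oocyte libraries were found for 42.2%, 36.1% and 34.2% of them in the same order. The part of these traits was not tested. The stricter set of 1760 regions with no early peak overlapped ESC regions in 31.4% of cases.

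The ESC share was also read by enrichment in the oocyte. From the lowest to the highest quartile of GV oocyte fold enrichment, 38.1%, 39.3%, 43.4% and 47.6% of late-reopened regions overlapped an ESC region. In the same quartiles the shares of oocyte-only regions were 13.1%, 14.5%, 13.8% and 19.9%. The sets also differed in length within quartiles, with medians of 763 against 694 bp in the lowest and 360 against 346 bp in the highest. The part of oocyte enrichment in the difference between the sets was not tested.

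Of the transcription-blocked embryos, those at the 8-cell stage had open regions at late-reopened sites. An 8-cell TBE region overlapped 2084 of them (51.3%), although untreated 8-cell embryos had none by rule. The background was again higher, at 72.4% of all GV oocyte regions. For oocyte-only regions the share was 34.4% and for regions reopened first at 8-cell 78.9%. Peaks overlapped 50.3%, 72.3% and 24.5% of late-reopened regions in TBE replicates 1, 2 and 3. Replicate 2, with the highest share, had a background level of 3.82 against 1.24 and 0.347 in replicates 1 and 3, and the part of depth was not tested.

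Read against held-out 8-cell control libraries, 8-cell TBE were not separated from controls. The TBE shares were 62.7%, 78.3% and 34.7% (58.6% ± 22.1, SD, n = 3) against 39.0% ± 7.07 in controls, a difference of 19.6 points with overlapping groups. The exact two-sided permutation test gave p = 0.3 (0.4 adjusted), and 2 of 3 TBE libraries were above the mean of the controls. Without replicate 2 the difference was 5.65 points, and with peaks of at least 3-fold enrichment it turned to -2.38 points. Oocyte-only regions had 40.6% in 8-cell TBE against 10.7% in held-out controls, with 3 of 3 TBE libraries higher, and all GV oocyte regions differed by 4.65 points. Late-reopened and oocyte-only regions were chosen for absence from 8-cell controls, with no such demand on TBE. This choice lowered the control side in both sets, and no effect of α-amanitin was read from these differences.

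Compared within each 8-cell TBE library, late-reopened regions had more peaks than oocyte-only regions, which had 33.1%, 62.7% and 12.1%. The mean difference was 13.1 points, in 3 of 3 libraries, with p = 0.25 in the exact two-sided paired permutation test (0.4 adjusted). Among late-reopened regions with no 8-cell control peak at all, 1113 of 2478 (44.9%) overlapped an 8-cell TBE region. The same share was 31.8% for oocyte-only and 37.6% for all GV oocyte regions without an 8-cell control peak. Peaks in all 3 TBE and no control library were found for 403 late-reopened regions (9.92%) and for 465 oocyte-only regions (6.34%), out of 1069 (3.21%) of all GV oocyte regions. The rule raised this share in both sets, since it removed regions open in 8-cell controls. Of the 403, 213 (52.9%) overlapped an ESC region, against 37.6% of the 1069 and 59.4% of all GV oocyte regions. A morula region overlapped 344 (85.4%) and an ICM region 251 (62.3%), which membership itself required in part, where 71.9% and 63.1% of all GV oocyte regions were overlapped.

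Earlier TBE had few such regions. A 4-cell TBE region overlapped 23 late-reopened regions (0.566%) and a 2-cell TBE region 12 (0.295%), where 10.7% and 9.10% of all GV oocyte regions were overlapped. The rule removed regions open in untreated embryos of the same stages, and these shares were not read further. In held-out comparisons 4-cell TBE had 8.28% ± 12.5 (SD, n = 3) against 20.7% ± 17.6 in controls, with p = 0.5 in the exact two-sided permutation test. In 2-cell TBE the share was 3.03% ± 2.77 (SD, n = 3) against 1.11% ± 1.02, with p = 0.4 in the same exact test. Neither difference exceeded the spread between libraries. Over all GV oocyte regions the held-out shares were 22.7% in 4-cell TBE against 44.6% in controls, a difference of -22.0 points. In 2-cell TBE they were 16.1% against 5.81%, a difference of 10.3 points, with no test for either.

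Regions were also split by ESC and 8-cell TBE together. Both overlapped 1023 late-reopened regions (25.2%), ESC alone 620 (15.3%), 8-cell TBE alone 1061 (26.1%) and neither 1360 (33.5%). Over all GV oocyte regions these shares were 52.6%, 6.80%, 19.8% and 20.8%. Neither was found at 57.8% of oocyte-only regions and at 12.0% of regions reopened first at 8-cell.

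Late-reopened regions seldom lay within 1 kb of chromatin that was open at 8-cell. The nearest 8-cell region was a median of 7.29 kb away, against 8.38 kb for oocyte-only regions. Within 1 kb lay 401 regions (9.87%) against 6.58% of oocyte-only regions, and within 10 kb 59.9% against 55.5%. Clustering among the regions was slight. Of the GV oocyte regions next to a late-reopened region along the chromosome, 14.1% were late-reopened, against 12.2% overall.

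**Figure D4:**
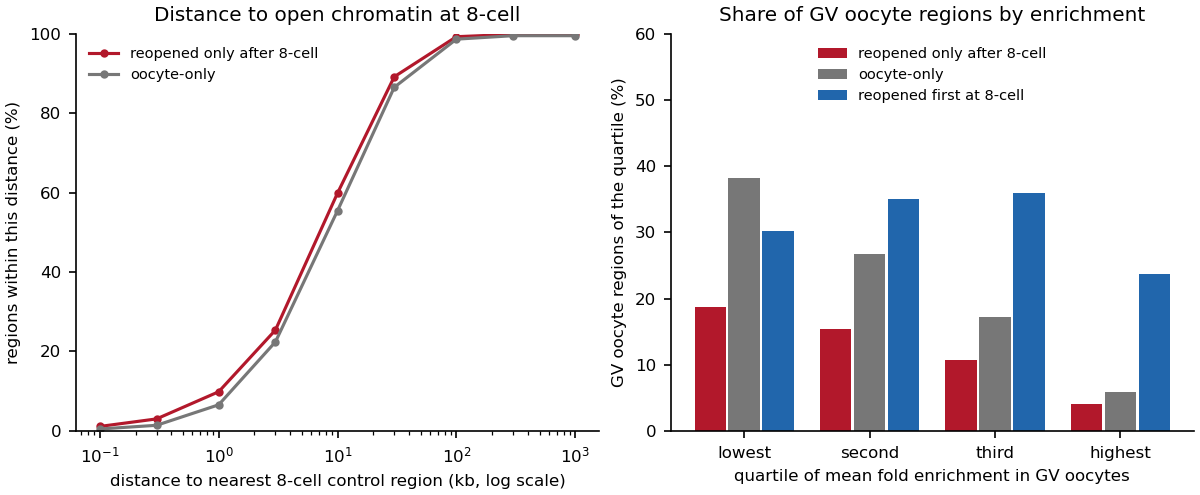
Left, percentage of late-reopened (red) and oocyte-only (grey) regions within a given distance of the nearest 8-cell control region (kb, log scale); right, percentage of the GV oocyte regions in each quartile of mean GV oocyte fold enrichment that belong to each set, with first-at-8-cell regions in blue. The distance curves lie close together, at 59.9% and 55.5% within 10 kb, and late-reopened regions make up 18.7% of the lowest and 4.03% of the highest quartile.

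The regions were spread over the genome. They made up 12.3% of GV oocyte regions on autosomes and 12.6% on X. The share was lowest on chromosome 18, with 132 of 1575 regions (8.38%), and highest on chromosome 24, with 160 of 952 (16.8%). On the gene-dense chromosomes 18, 19 and 25 it was 9.65% (391 of 4050), and on the gene-poor chromosomes 6, 9 and 12 it was 13.3% (373 of 2802). On unplaced scaffolds it was 5.03% (33 of 656). These shares were not tested, since regions of a genome are not independent replicates.

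The clearest examples had peaks in all 9 GV oocyte, morula and ICM libraries and in none of the 9 early control libraries, which held for 89 regions (2.19%). Of these 89, 16 had peaks in all 3 ESC libraries and 31 in none, and 10 had peaks in all 3 8-cell TBE libraries and 37 in none. For ESC these were 18.0% and 34.8% of the 89, against 17.3% and 42.0% of all late-reopened regions and 39.3% and 30.0% of all GV oocyte regions. For 8-cell TBE they were 11.2% and 41.6%, against 20.6% and 22.6% of late-reopened and 51.5% and 12.7% of all GV oocyte regions. The 8 with the highest mean fold enrichment over the 9 libraries are named a1 to a8. Positions are on ARS-UCD1.2, and genes at these positions were not analysed here.

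Region a1, at chr15:58481736-58482172, had the highest mean. Its fold enrichment was 6.66, 5.54 and 4.57 in GV oocytes, 6.39, 9.27 and 7.74 in morula, and 7.30, 10.0 and 9.11 in ICM. ESC kept it open, at 5.87, 9.55 and 5.99, and no TBE library had a peak. Region a2, at chr13:33122821-33123189, had 4.13, 3.66 and 4.19 in GV oocytes, 7.79, 7.46 and 8.38 in morula, and 8.90, 7.34 and 10.6 in ICM. It had no peak in any ESC or TBE library, and its enrichment in every morula and ICM library was above every GV oocyte library.

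Region a4, at chr28:31154201-31154612, had a similar order, with 3.14, 3.45 and 4.52 in GV oocytes, 9.74, 7.03 and 6.55 in morula, and 5.39, 9.71 and 8.36 in ICM. It was open in ESC, at 3.33, 6.43 and 6.46. Region a8, at chr15:47847777-47848995, was the other of the 8 with peaks in 3 ESC libraries besides a1 and a4, at 4.74, 5.77 and 4.82. Its fold enrichment was 6.39, 4.08 and 4.43 in GV oocytes, 4.96, 5.57 and 6.32 in morula, and 7.35, 7.13 and 6.70 in ICM. In this region the groups overlapped between GV oocytes and morula.

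Region a3, at chr10:46098883-46099194, region a6, at chr10:100597272-100597609, and region a7, at chr10:7136978-7137538, had no ESC peak. In the morula they had 6.75, 9.46 and 9.82 for a3, 6.79, 7.84 and 5.47 for a6, and 5.10, 9.87 and 6.49 for a7. Region a5, at chr16:41947456-41948083, had ESC peaks in 2 of 3 libraries, at 5.00 and 5.81. All of a3 to a7 had a peak in 8-cell TBE replicate 2, the deepest library, at a fold enrichment of 1.97 to 3.21. In a5 a peak of TBE replicate 1 was also present, at 2.82, and a7 had a peak in replicate 1 of 4-cell TBE, at 3.70.

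Regions b1 to b3 had the highest 8-cell TBE enrichment among the 403 regions with peaks in all 3 TBE and no control library at 8-cell. Region b1, at chr1:25222099-25222414, had 7.61, 6.02 and 6.66 in 8-cell TBE. It had 3.69 and 5.04 in 2 of 3 GV oocyte libraries and 3.17, 4.50 and 4.33 in the morula. The ICM had no peak there. Region b2, at chr26:35375497-35375896, had 6.85, 5.47 and 5.93 in 8-cell TBE, 3.79, 4.41 and 5.37 in GV oocytes and peaks in 2 morula libraries, at 5.06 and 4.17. Region b3, at chr4:66975600-66975893, had 6.45, 4.61 and 5.71 in 8-cell TBE, and single libraries of 2-cell TBE, 4-cell TBE, 2-cell control and 4-cell control embryos also had a peak, at 4.45, 5.01, 4.38 and 4.28. In each of the 3 regions the enrichment in every 8-cell TBE library was above that in every GV oocyte library. They were named for high TBE values, so this order is a description.

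Regions c1 to c3 had the highest ESC enrichment among 225 regions with peaks in all 3 ESC and no early control library. Region c1, at chr3:87142520-87142829, had 8.71, 10.97 and 10.5 in ESC, 4.49, 6.97 and 4.52 in GV oocytes, and peaks in 2 of 3 morula and 2 of 3 ICM libraries. Region c2, at chr12:83083908-83084600, had 8.81, 10.7 and 10.3 in ESC, 3.75, 5.85 and 5.58 in morula and 3.92, 3.14 and 3.21 in ICM. Region c3, at chr28:18097563-18098602, had 7.89, 10.6 and 8.89 in ESC and no ICM peak. Of the 225 regions, 162 (72.0%) overlapped an ICM region and 179 (79.6%) a morula region, shares that the choice of the members fixed in part. An 8-cell TBE region overlapped 92 (40.9%), against 37.3% of the 413 GV oocyte regions of any kind with peaks in all 3 ESC and no early control library, and 72.4% of all GV oocyte regions. For morula and ICM regions the shares over all GV oocyte regions were 71.9% and 63.1%.

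**Figure D5:**
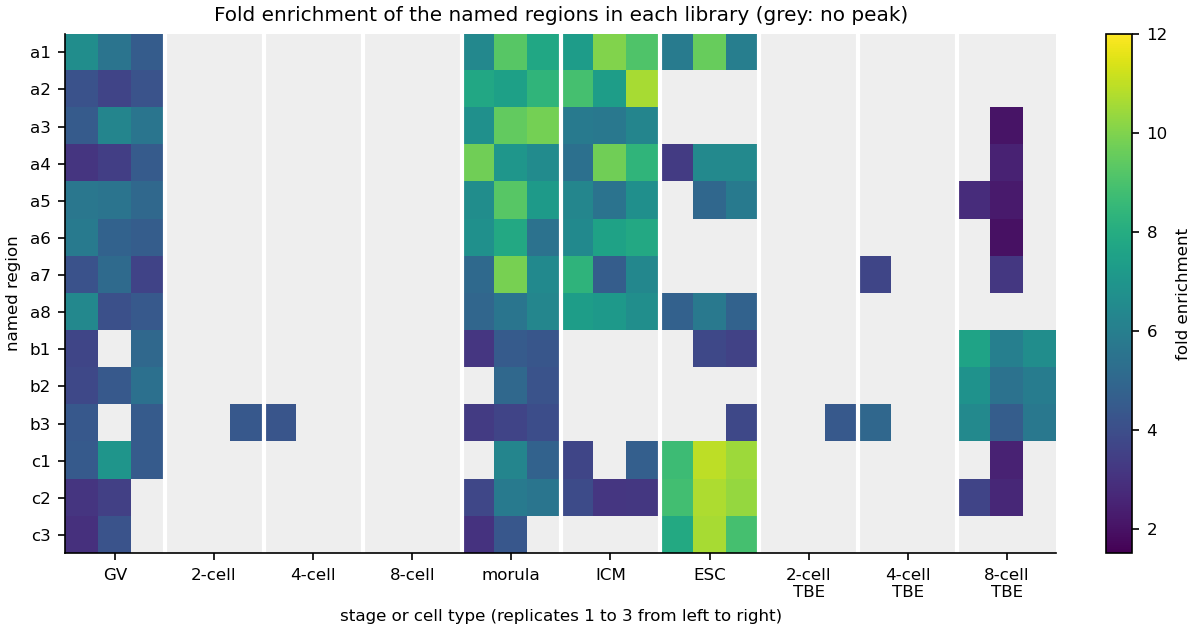
Fold enrichment of the peak at each named region (rows a1 to c3) in each of 30 libraries (columns, 3 replicates per group from left to right), with grey where no peak was called. Regions a1 to a8 are filled in all 9 GV oocyte, morula and ICM libraries, b1 to b3 in all 3 8-cell TBE libraries, and c1 to c3 are brightest in ESC, at 7.89 to 10.97.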

How the data were processed

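ATAC-seq peak lists of 30 libraries, 3 in each of 10 groups, were grouped by the labels. The authors trimmed reads with Trim Galore and cutadapt 0.4.0, mapped reads with BWA 0.7.17 to the ARS-UCD1.2 assembly, removed duplicates and low-quality or mitochondrial alignments with PicardTools and SAMtools 1.7, and called broad peaks with MACS2 2.1.1 at a q value of 0.05, with versions and tools as listed in the methods and the submitters' processing notes. Each deposited list belongs to 1 library, and pooled or subsampled reads were not used here. The authors gave each peak a fold enrichment over the local background, a −log10 p and a −log10 q, averaged over the peak. The deposited score is derived from the −log10 q and was not used here.

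Peaks of the 3 replicates of a group were merged on an overlap of at least 1 bp, and regions with peaks of at least 2 replicates were kept. The members and lists were chosen with earlier results of these data known. Since the choice rests on the control libraries, tests used regions chosen from 2 replicate numbers and read in the one left out, or ESC and TBE libraries. Exact two-sided permutation tests compared 3 libraries with 3, or 3 pairs of sets within libraries, with Benjamini-Hochberg adjustment over 8 tests. Their smallest p was 0.1 and 0.25. Nothing in the labels names separate cultures for ESC, and p-values there measure the spread between libraries only.

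Regions were named by 3 rules. Of the regions with peaks in all GV oocyte, morula and ICM libraries and no early control library, the 8 with the highest mean fold enrichment were taken. The other rules took the 3 highest in 8-cell TBE among those with peaks in all 3 TBE and no control library at 8-cell, and the 3 highest in ESC among those with peaks in all 3 ESC and no early control library. Read numbers are described in the paper for pooled stages and were not used here. In their place, the genome-wide background of each list, which scales with depth, was derived from whole-number pileups, in 28 of 30 libraries, from 3 or more peaks that shared a level to within 0.0001 in −log10 p, and 2 gave upper limits. On simulated data the interval functions gave 0 mismatches in 200 trials, and 4 of 4 levels were recovered. Computation used scipy 1.17.1, pandas 2.3.3 and numpy 2.4.6 under Python 3.11.15, and plots used matplotlib 3.10.9. Genes, sequences, base composition and motifs at the regions were not analysed here, since the reference used here is of another assembly.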

Additional observations from a re-analysis of the deposited data

How the results depend on the processing

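The number of late-reopened regions depended on the thresholds, while the direction of the comparisons mostly did not. The main count of 4064 became 1345 when peaks needed a −log10 q of 3 or more, 10502 with peaks of any replicate, 2002 with peaks of all 3 replicates, and 1760 where no single early control library was allowed a peak, an alternative chosen after seeing the data, as was leaving out the 2-cell lists. It ranged from 2220 to 3417 when a replicate number was left out, where regions had to be found in both remaining replicates. Over 9 results and 110 alternatives, 1 direction turned: 8-cell TBE minus held-out 8-cell control was -2.38 points with peaks of at least 3-fold enrichment, and the cause was not tested. That difference was 5.65 to 33.1 points when a replicate was left out, and 26.5 points with lists cut to 40132 peaks, where the exact two-sided permutation test gave p = 0.1. Morula minus held-out 8-cell ranged from 30.8 to 48.8 points, ICM minus held-out 8-cell from 19.9 to 46.0, and late-reopened minus oocyte-only regions in ESC from 13.5 to 32.2, over the alternatives that keep all replicates. With a replicate left out the ranges were 27.8 to 48.0, 19.5 to 27.7 and 24.8 to 32.5. In ESC, late-reopened minus regions reopened first at 8-cell ranged from -31.5 to -9.67 points, and late-reopened minus oocyte-only regions in 8-cell TBE from 6.09 to 21.9. These were -28.0 to -25.3 and 16.96 to 20.5 with a replicate left out.

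Embryos of a collection were split between culture with and without α-amanitin, and TBE and control libraries share replicate numbers, but no source used here says that a number marks a collection. The data did not settle whether the numbers pair the libraries. Of 9 correlations of their deviations, 0 were above 0.1 (-0.03 to 0.08), and 2 of 9 control libraries correlated best with their own number. The lengths of the peak lists, however, had the same order by number in control and TBE at 2-cell and at 4-cell, though not at 8-cell. A replicate block leaves a mean difference as it is and changes only its p. In exact paired permutation tests with the block, p was 0.5 for 8-cell TBE (19.6 points), 0.5 for 2-cell TBE (1.92 points) and 0.25, the smallest p of 3 pairs, for 4-cell TBE (-12.4 points), where each TBE library was below the control library of its number. Without the block, exact permutation tests of the region sets gave p = 0.2 and 0.3 for the ESC comparisons (22.8 and -23.9 points) and 0.5 for 8-cell TBE (13.1 points). Held-out comparisons were not run with peaks of all 3 replicates, since 2 remained. Within every group except GV oocytes the shares of late-reopened regions followed the order of the background levels, and the part of depth was not tested.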
